A study of Mus musculus with 22 samples.

Results

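The 9 genes described here, Lepr, Insr, Igf1r, Irs1, Irs2, Socs3, Ptpn1, Ptpn2 and Foxo1, carry the leptin and insulin signals in the cell. They were chosen by name from the 18820 genes that the array measured. Each gene stands for the probe set with its highest mean level, and the 9 genes had 12 probe sets in all. The series followed hypothalamic gene expression in mice carrying Lewis lung carcinoma, a transplantable mouse lung tumour that causes weight loss. Its title concerns food intake and serotonin in cachexia, the wasting that accompanies a tumour.

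All 22 mice were male C57BL/6 animals, housed singly on a purified diet eaten freely, and 6 weeks old at inoculation per the series' design text. The tumour-bearing mice received carcinoma cells in the muscle of a hind leg under anaesthesia, and were killed later: 5 of them on day 10, 7 on day 14 and 6 on day 17. The 4 control mice carried no tumour and were killed on day 14. Whether they received a sham injection is not given in the sources used here. Ketamine and xylazine were given to every mouse before dissection, so that the groups share this anaesthesia. Each array held the hypothalamus of 1 mouse, as a whole-tissue extract. In such a sample, fewer cells of a type and less RNA per cell cannot be told apart. Days 10 and 17 had no controls of their own day, and the 3 comparisons with controls share the same 4 mice.

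Leptin is a hormone of fat tissue that reports energy stores. It binds the receptor Lepr on hypothalamic neurons and on other brain cells, and the kinase Jak2 then activates the transcription factor Stat3, which induces Socs3 and, in neurons that hold it, the appetite-lowering precursor gene Pomc. Insulin and insulin-like growth factors bind Insr and Igf1r, which act through the docking proteins Irs1 and Irs2, phosphatidylinositol 3-kinase and Akt. Akt keeps the transcription factor Foxo1 out of the nucleus. Socs3 and the tyrosine phosphatases Ptpn1 and Ptpn2 dampen both routes.

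The values are log2 array intensities, so a difference of 1 is a doubling, and a level is not comparable between genes because probes differ in brightness. All 9 genes exceeded the background on all 22 arrays. Background was taken as 3.87 on the log2 scale, the 95th percentile of 1180 probe sets of olfactory and vomeronasal receptors. All 15 hypothalamus markers, among them Oxt, Avp, Hcrt and Pomc, were also above it on every array. Markers of cell types and of a neighbouring region were read on the same arrays. The mean of 12 thalamus markers ran from 6.66 to 7.80 in controls and from 6.57 to 7.44 in tumour-bearing mice. The mean of 9 neuron markers ran from 10.20 to 10.30 in controls and from 10.05 to 10.22 in tumour-bearing mice.

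None of the 9 genes passed the test against controls on any day (limma, Benjamini-Hochberg adjusted p below 0.05 over all genes). Of all genes tested, 0.106% passed on day 10, 0.218% on day 14 and 1.12% on day 17. Between tumour-bearing groups 0 members passed either, where 0.00531% of all genes passed between days 14 and 10, 0% between days 17 and 10 and 0% between days 17 and 14. Nor did a member pass with the 3 tumour groups averaged against controls (0.643% of all genes passed) or in the F test of any difference between the 4 groups (0.335% passed). At an unadjusted p below 0.05 there were 0 members on day 10, 4 on day 14 and 2 on day 17. The same looser rule took 10.7%, 10.5% and 16.6% of all genes. The median difference of the 9 genes from controls was -0.04, 0.05 and 0.03 on the log2 scale on days 10, 14 and 17, beside 0.00, 0.00 and -0.01 for all genes.

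**Figure D1:**
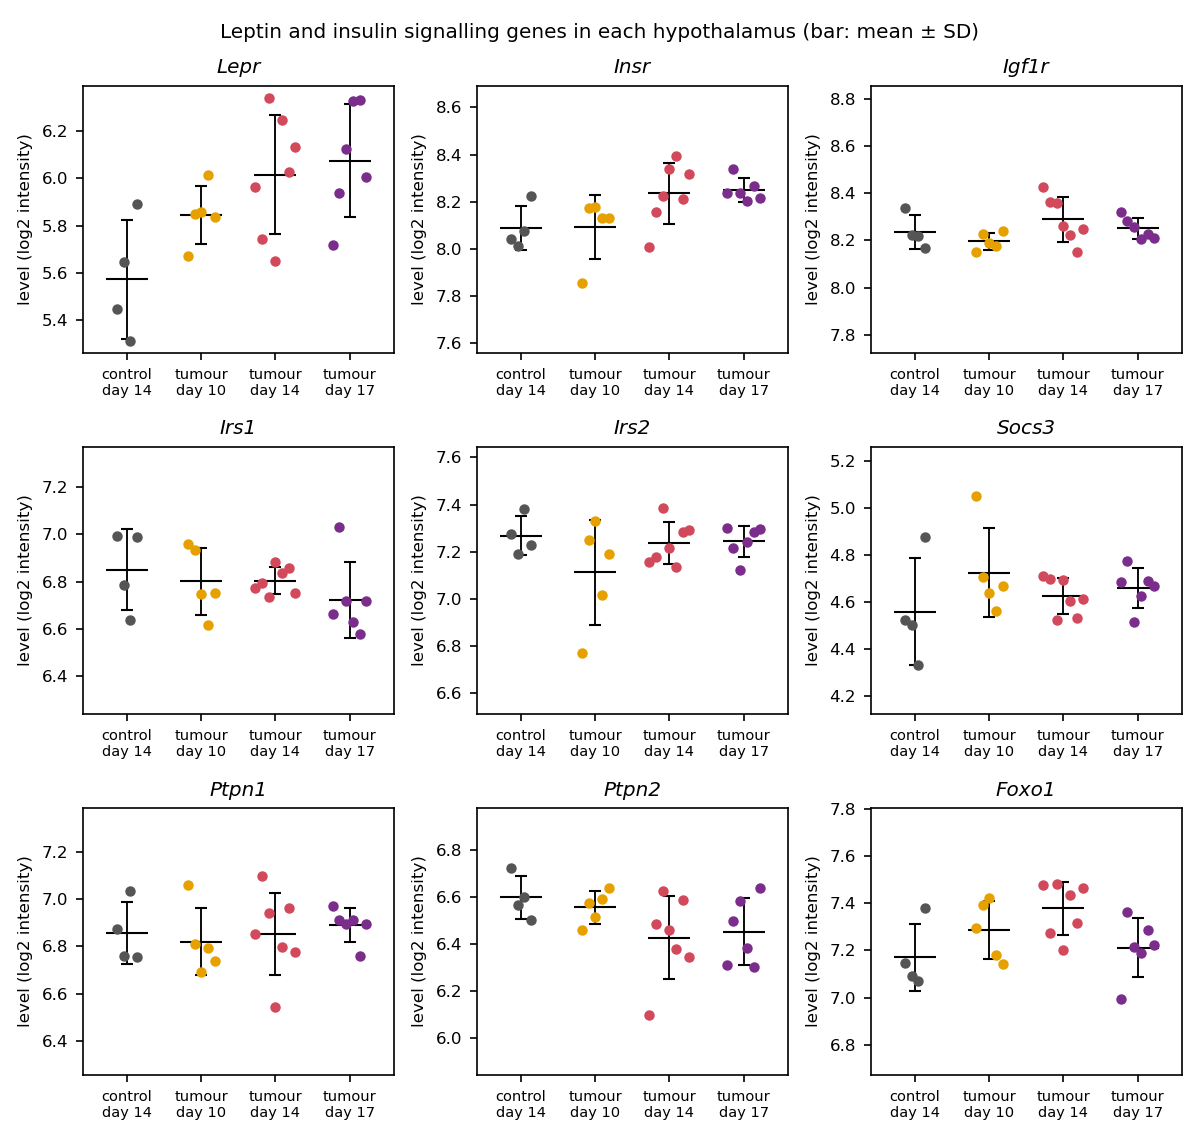
Level of each of the 9 genes (log2 intensity, vertical axis, the same span in every panel) in each mouse, by group. Points are mice, and bars show the mean ± SD of 4 control mice and of 5, 7 and 6 tumour-bearing mice of days 10, 14 and 17. Lepr has the widest spread between groups, with a control mean of 5.57 and a day 17 mean of 6.07, and every gene has some tumour-bearing mice within the range of the controls.

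Lepr, the leptin receptor, showed the largest differences from controls among the 9 genes on all 3 days, each gene read by its brightest probe set. On day 10 the dimmer Socs3 probe set differed by more (0.34, against 0.27 for Lepr). The 4 controls measured 5.31, 5.44, 5.64 and 5.89 (mean 5.57 ± 0.25, SD). On day 10 the 5 mice measured 5.67, 5.84, 5.85, 5.86 and 6.01 (5.84 ± 0.12). On day 14 the lowest of 7 mice was 5.65, the median 6.03 and the highest 6.34 (6.01 ± 0.25). On day 17 the lowest of 6 mice was 5.72, the median 6.06 and the highest 6.33 (6.07 ± 0.24). The groups overlapped: 1 of 5 mice on day 10, 5 of 7 on day 14 and 5 of 6 on day 17 lay above the highest control.

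The Lepr mean was above the control mean by 0.27 ± 0.14 on day 10 (SE, log2, limma adjusted p = 0.505), by 0.44 ± 0.13 on day 14 (adjusted p = 0.193) and by 0.50 ± 0.14 on day 17 (adjusted p = 0.0708). The 95% intervals were -0.02 to 0.56, 0.17 to 0.71 and 0.22 to 0.78. By p, Lepr ranked 2447, 272 and 323 of 18820 genes. The 4 group means stood in the order control, day 10, day 14, day 17, and no difference between neighbouring groups passed, day 10 against control included. Day 14 minus day 10 was 0.17 ± 0.12 (limma unadjusted p = 0.180, adjusted p = 0.816). Day 17 minus day 14 was 0.06 ± 0.12 (unadjusted p = 0.617, adjusted p = 1.00). With the tumour groups averaged, Lepr was 0.41 ± 0.12 above controls (adjusted p = 0.106). Its single probe set does not tell the long signalling form of the receptor from the short forms.

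Whether Lepr passed on day 17 depended on single arrays and on the fit, and in most fits it did not pass. It passed in 2 of the 22 fits that left out 1 array, where its difference ran from 0.41 to 0.61. It passed in 4 of 18 other settings, 1 of them the looser threshold of 0.1. Across those settings the difference ran from 0.05 to 0.61. The fits in which it passed at 0.05 are given next. The adjusted p was 0.0366 without control mouse 4, the highest of the controls, where the difference was 0.61. It was 0.0444 without day 17 mouse 1, the lowest of its group, where the difference was 0.56. It was also below 0.05 with a variance trend (0.0475), with array weights (0.0282) and with a term for the run of sample records (0.0464). With array weights the average of the tumour days passed too (adjusted p = 0.0260). In the earlier of the 2 runs, which held 1 control, Lepr was above it by 0.31, 0.57 and 0.48 on days 10, 14 and 17. In the later run, with 3 controls, it was above them by 0.29, 0.40 and 0.61.

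Lepr varied from mouse to mouse with markers of several cell types. Over the 22 arrays its Pearson correlation with the mean of the neuron markers was -0.85 (Spearman -0.81, and permutation p = 1e-05, the smallest 100000 permutations can give, and 3e-05, two-sided). Adjusted over the 12 marker lists examined, these were 0.00012 and 0.00036. The permutations, here and below, moved arrays freely across groups, so these p-values also hold the differences between groups. The marker lists were chosen with earlier results of these data known, so the p-values are a description. The correlation was -0.78 within groups, and -0.78 without the 2 arrays farthest from the median of the neuron markers. All 9 neuron markers had a lower mean than in controls on each of the 3 days, and 1 of them, the neurofilament gene Nefl, passed on day 17 (-0.23 ± 0.06, adjusted p = 0.0445). With the neuron mean in the fit, chosen after the data were seen, the Lepr differences were -0.10, 0.06 and 0.05 on days 10, 14 and 17.

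**Figure D2:**
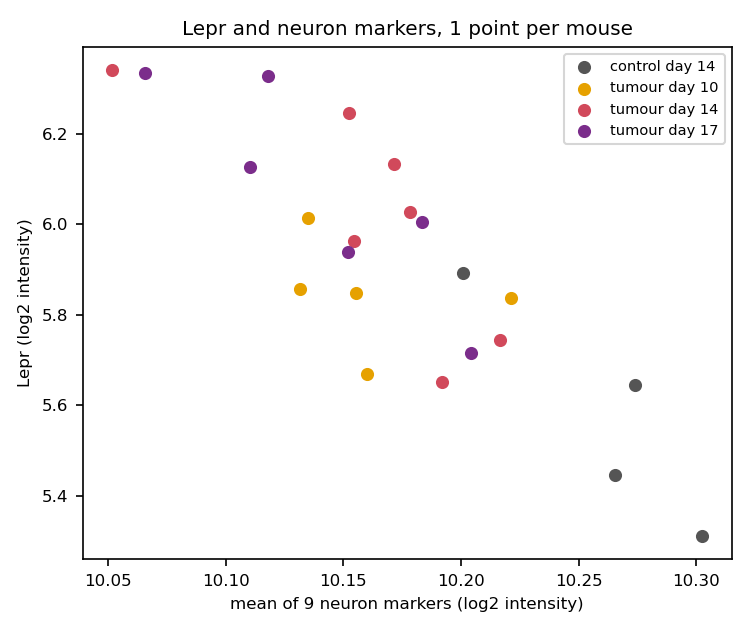
Lepr (vertical axis, log2 intensity) against the mean of 9 neuron markers (horizontal axis, log2 intensity), 1 point per mouse, coloured by group. Mice high in Lepr are low in the neuron mean (Pearson -0.85 over 22 arrays), and the 4 controls lie to the right, between 10.20 and 10.30 on the horizontal axis.

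The thalamus borders the hypothalamus, and its markers also varied with Lepr. The correlation with the thalamus mean was -0.68 (Spearman -0.60, permutation p = 0.00033 and 0.00409, two-sided, adjusted over 12 lists 0.00184 and 0.0123), -0.63 within groups and -0.57 without the 2 farthest arrays. All 12 thalamus markers had a lower mean than in controls on each day, with 0 of 12 past the threshold. Slc17a6 is in both this list and the neuron list. With the thalamus mean in the fit Lepr was 0.09, 0.28 and 0.32 above controls. Without the 4 arrays highest in these markers, 2 of them controls, it was 0.08, 0.29 and 0.38 above. Lepr also correlated with the mean of 9 tanycyte markers (Pearson 0.59, Spearman 0.69, permutation p = 0.00382 and 0.00051, adjusted 0.0115 and 0.00306), 0.60 within groups and 0.67 without the 2 farthest arrays. Tanycytes are the cells that line the floor of the third ventricle. For 3 red cell markers it was 0.68 (Spearman 0.61, permutation p = 0.00046 and 0.00347, adjusted 0.00184 and 0.0123) but 0.33 within groups, and 0.58 without the 2 farthest arrays. The mean of these red cell markers ran from 4.01 to 5.00 in controls and from 4.82 to 6.86 in tumour-bearing mice, and 2 of the 3 rose on days 14 and 17. For 8 oligodendrocyte markers it was -0.50 (Spearman -0.47, permutation p = 0.0196 and 0.0289, adjusted 0.0470 and 0.0693), -0.38 within groups and -0.48 without the 2 farthest arrays. The other 7 lists had an adjusted permutation p of 0.0648 or more. The part of tissue or cell make-up in the Lepr differences was not tested beyond these values.

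Insr, the insulin receptor, was level with controls on day 10 and above them in mean on days 14 and 17. Controls measured 8.01, 8.04, 8.08 and 8.22 (8.09 ± 0.09, SD), and the day 10 mice 7.86, 8.13, 8.13, 8.17 and 8.18 (8.09 ± 0.13). Day 14 ran from 8.01 through a median of 8.22 to 8.39 (8.24 ± 0.13), and day 17 from 8.20 through 8.24 to 8.34 (8.25 ± 0.05). Above every control lay 0 of 5, 3 of 7 and 4 of 6 mice, so the groups overlapped on each day. The differences were 0.00 ± 0.07, 0.15 ± 0.07 and 0.16 ± 0.07 (SE, limma adjusted p = 0.990, 0.462 and 0.263), with 95% intervals of -0.15 to 0.16, 0.00 to 0.29 and 0.01 to 0.31. A second Insr probe set gave 0.04 ± 0.05, 0.12 ± 0.05 and 0.11 ± 0.05 (adjusted p = 0.805, 0.422 and 0.281).

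Igf1r, the receptor for insulin-like growth factor 1, had narrow groups. Controls measured 8.17, 8.22, 8.22 and 8.34 (8.24 ± 0.07, SD), and the day 10 mice 8.15, 8.17, 8.19, 8.23 and 8.24 (8.20 ± 0.04). Day 14 ran from 8.15 through 8.26 to 8.43 (8.29 ± 0.10), and day 17 from 8.20 through 8.24 to 8.32 (8.25 ± 0.05). Outside the control range lay 1 of 5, 4 of 7 and 0 of 6 mice. The differences were -0.04 ± 0.05, 0.05 ± 0.05 and 0.01 ± 0.05 (SE), and the 95% intervals, -0.15 to 0.07, -0.05 to 0.16 and -0.09 to 0.12, were the narrowest among the 9 genes.

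Irs1 and Irs2 are the docking proteins that the activated insulin receptor phosphorylates. Irs1 measured 6.64, 6.79, 6.99 and 6.99 in controls (6.85 ± 0.17, SD) and 6.62, 6.75, 6.75, 6.93 and 6.96 on day 10 (6.80 ± 0.14). It ran from 6.73 through 6.79 to 6.88 on day 14 (6.80 ± 0.06) and from 6.58 through 6.69 to 7.03 on day 17 (6.72 ± 0.16). All 7 day 14 mice lay inside the control range. The Irs1 differences were -0.05 ± 0.09, -0.05 ± 0.08 and -0.13 ± 0.08 (SE), with a 95% interval of -0.30 to 0.05 on day 17.

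Irs2, the form whose loss in the brain of mice raises food intake, measured 7.19, 7.23, 7.28 and 7.38 in controls (7.27 ± 0.08, SD) and 6.77, 7.02, 7.19, 7.25 and 7.33 on day 10 (7.11 ± 0.22). It ran from 7.14 through 7.22 to 7.38 on day 14 (7.24 ± 0.09) and from 7.12 through 7.26 to 7.30 on day 17 (7.24 ± 0.07). Day 10 had 3 of 5 mice below every control and the widest spread. The Irs2 differences were -0.16 ± 0.08, -0.03 ± 0.08 and -0.02 ± 0.08 (SE, limma adjusted p = 0.519, 0.914 and 0.911). The 95% interval for day 10 was -0.33 to 0.02.

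Socs3, the suppressor of cytokine signalling that Stat3 induces and that blocks Jak2 at the leptin receptor, was measured by a pair of probe sets. RefSeq promoter windows of 300 bases (250 before and 50 after a listed gene start, GRCm38.p6) were at hand for 7 of the 9 genes, in 8 windows. The letters TTCNNNGAA, the core that Stat proteins bind, read on both strands, were found in the window of Socs3 and of no other of the 7 genes, and in 8.3% of all 32851 windows. The FOXO core GTAAACA, also read on both strands, was in 0 of the 8 windows and in 3.65% of all windows. The 250 bases before the Socs3 start of this window are shown because they hold the match, in capitals, at chr11:117969367-117969616 on the minus strand. They lie inside the whole span that RefSeq lists for Socs3, whose outermost start is further upstream:

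Socs3: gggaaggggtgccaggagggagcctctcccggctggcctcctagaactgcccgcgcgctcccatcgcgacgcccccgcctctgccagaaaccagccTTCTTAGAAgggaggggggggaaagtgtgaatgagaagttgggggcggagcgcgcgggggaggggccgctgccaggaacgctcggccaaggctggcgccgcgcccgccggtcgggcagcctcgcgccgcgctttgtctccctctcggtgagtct

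The brighter Socs3 probe set measured 4.33, 4.50, 4.52 and 4.88 in controls (4.56 ± 0.23, SD) and 4.56, 4.64, 4.67, 4.71 and 5.05 on day 10 (4.72 ± 0.19). It ran from 4.52 through 4.62 to 4.71 on day 14 (4.63 ± 0.08) and from 4.51 through 4.68 to 4.77 on day 17 (4.66 ± 0.09). Control mouse 4 was above every mouse of days 14 and 17. The differences were 0.17 ± 0.09, 0.07 ± 0.09 and 0.10 ± 0.09 (SE, limma adjusted p = 0.543, 0.823 and 0.606).

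The dimmer Socs3 probe set, close to background, separated day 10 from the controls. It measured 3.92, 4.02, 4.04 and 4.15 in controls (4.03 ± 0.09, SD) and 4.24, 4.24, 4.35, 4.36 and 4.64 on day 10 (4.37 ± 0.16), so all 5 mice lay above every control. How many of all probe sets separate these groups in this way was not counted. Day 14 ran from 4.01 through 4.18 to 4.44 (4.19 ± 0.13) and day 17 from 4.08 through 4.29 to 4.37 (4.24 ± 0.13), and both overlapped the controls. In a fit over all named probe sets the differences were 0.34 ± 0.09, 0.16 ± 0.08 and 0.21 ± 0.08 (SE, limma adjusted p = 0.182, 0.508 and 0.212). Neither probe set passed the threshold on any day, and both had their largest difference on day 10. In the brighter one this rested on day 10 mouse 1 (5.05). Without that mouse the day 10 difference was 0.08, below the 0.10 of day 17. By run, the day 10 difference of the brighter probe set was 0.35 in the earlier run and 0.05 in the later.

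**Figure D3:**
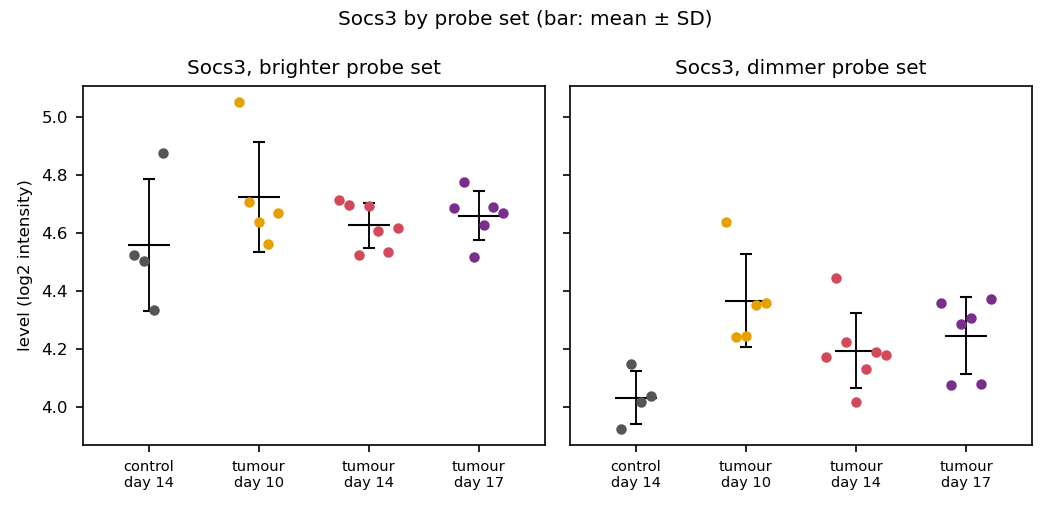
Level of the 2 Socs3 probe sets (log2 intensity, the same vertical axis) in each mouse, with group means ± SD. In the dimmer probe set the 5 mice of day 10, from 4.24 to 4.64, lie above the 4 controls, from 3.92 to 4.15. In the brighter one the groups overlap.

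Ptpn1, the phosphatase PTP1B that removes phosphate from Jak2 and from the insulin receptor, measured 6.75, 6.76, 6.87 and 7.04 in controls (6.86 ± 0.13, SD) and 6.69, 6.74, 6.79, 6.81 and 7.06 on day 10 (6.82 ± 0.14). It ran from 6.54 through 6.85 to 7.10 on day 14 (6.85 ± 0.17) and from 6.76 through 6.90 to 6.97 on day 17 (6.89 ± 0.07). All 6 day 17 mice lay within the control range. The differences were -0.04 ± 0.09, 0.00 ± 0.08 and 0.03 ± 0.09 (SE), with 95% intervals of -0.22 to 0.15, -0.18 to 0.17 and -0.14 to 0.21.

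Ptpn2, the phosphatase TC-PTP that acts on Stat3 and the insulin receptor, was the member most often below the controls. It measured 6.50, 6.56, 6.60 and 6.72 in controls (6.60 ± 0.09, SD) and 6.46, 6.52, 6.57, 6.59 and 6.64 on day 10 (6.56 ± 0.07). It ran from 6.10 through 6.46 to 6.62 on day 14 (6.43 ± 0.18) and from 6.30 through 6.44 to 6.64 on day 17 (6.45 ± 0.14). Below every control lay 1 of 5, 5 of 7 and 4 of 6 mice. The differences were -0.04 ± 0.09, -0.17 ± 0.08 and -0.15 ± 0.09 (SE, limma adjusted p = 0.893, 0.477 and 0.395). A second, dimmer Ptpn2 probe set gave -0.08 ± 0.15, -0.17 ± 0.14 and -0.19 ± 0.14 (adjusted p = 0.885, 0.705 and 0.539).

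Foxo1, the transcription factor that insulin restrains and that raises Npy and lowers Pomc transcription, had its highest mean on day 14. It measured 7.07, 7.09, 7.15 and 7.38 in controls (7.17 ± 0.14, SD) and 7.14, 7.18, 7.30, 7.39 and 7.42 on day 10 (7.29 ± 0.12). It ran from 7.20 through 7.43 to 7.48 on day 14 (7.38 ± 0.11) and from 7.00 through 7.22 to 7.36 on day 17 (7.21 ± 0.12). Above every control lay 2 of 5, 4 of 7 and 0 of 6 mice. The differences were 0.12 ± 0.08, 0.21 ± 0.08 and 0.04 ± 0.08 (SE, limma adjusted p = 0.634, 0.330 and 0.838). Day 17 minus day 14 was -0.17 ± 0.07 (unadjusted p = 0.0233, adjusted p = 1.00).

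**Figure D4:**
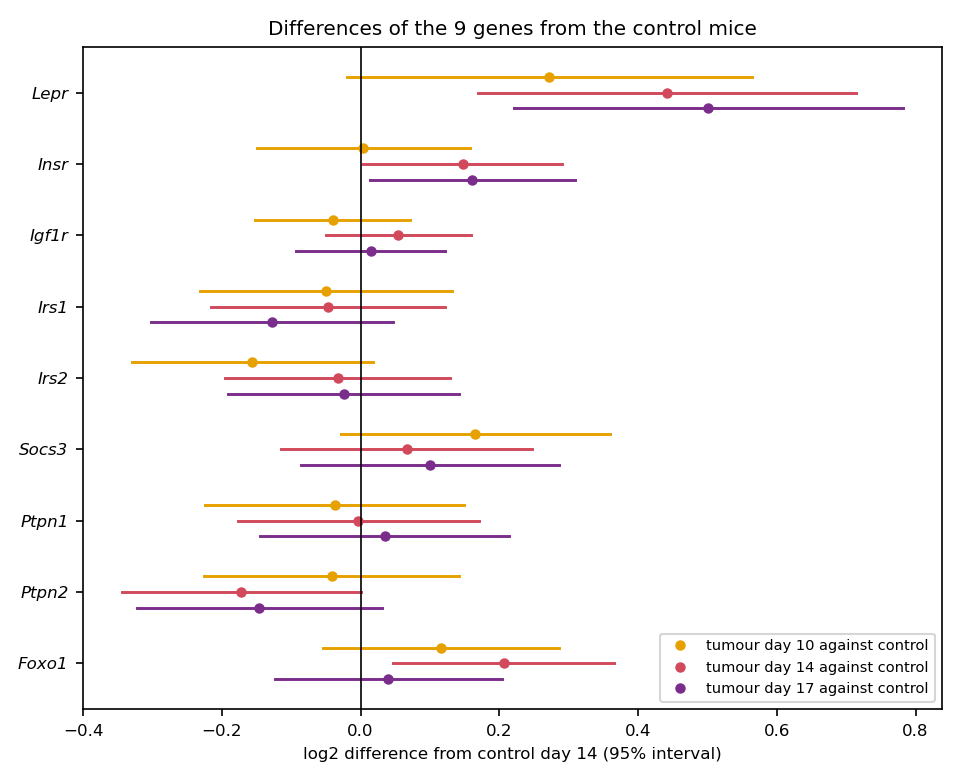
Differences from controls for the 9 genes on tumour days 10, 14 and 17 (horizontal axis, log2 difference, points) with their 95% intervals (lines). On day 14 the intervals of Lepr, Insr and Foxo1 lie above 0 and that of Ptpn2 lies just below it, and on day 17 those of Lepr and Insr lie above 0. These intervals are not adjusted for the 18820 genes tested, and no gene passed the adjusted threshold.

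Across mice the 9 genes followed different patterns. Among their 36 pairs, the Pearson correlations over the 22 arrays ran from -0.58 for Irs2 with Socs3 to 0.53 for Lepr with Foxo1, followed by 0.52 for Lepr with Insr. Within groups these were -0.52, 0.57 and 0.27. The arrays share tissue make-up, so the values are a description. Among 13069 other genes above background, those whose levels were most like Lepr were Plce1 (0.87) and the metallothionein gene Mt1 (0.86). Cplane1 (0.85) and Sun1 (0.81) were most like Insr. For Igf1r they were Vps52 (0.81) and the neurotrophin receptor gene Ngfr (0.81). For Irs1 they were Tlcd3b (0.80) and Phf8 (0.78), and for Irs2 they were Dpy19l3 (0.82) and Kat2a (0.80). Socs3 was most like Ccdc92b (0.86) and Sh3bgr (0.77), and Ptpn1 was most like Rasl11a (0.73) and Tmem160 (0.72). Mosmo (0.81) and Lrrc4 (0.81) were most like Ptpn2, and the histidine decarboxylase gene Hdc (0.75) and Matn2 (0.75) most like Foxo1. The share of genes with a correlation beyond 0.5 in size was 12.9% for Lepr and 3.92% for Foxo1. The genes named for each member are the highest of 13069 over 22 arrays. What chance gives for such maxima was not tested.

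The genes that carry the leptin receptor's signal gave no call. Of 16 measured genes of this list 0 passed on any day, and their median differences were 0.00, -0.04 and -0.06 on days 10, 14 and 17. Jak2, the kinase bound to the receptor, differed by 0.00 ± 0.05, -0.03 ± 0.04 and -0.05 ± 0.05 (SE). Stat3 differed by 0.04 ± 0.06, 0.09 ± 0.05 and 0.08 ± 0.06, the adaptor gene Sh2b1 by -0.04 ± 0.07, -0.03 ± 0.06 and -0.07 ± 0.06, and the phosphatase gene Ptpn11 by 0.03 ± 0.05, 0.07 ± 0.05 and 0.07 ± 0.05. Their lowest adjusted p were 0.650, 0.506, 0.585 and 0.485. The smallest p-values in the list belonged to Grb2 and Sos1, which link receptors to Ras. On day 17 these were -0.14 ± 0.06 and -0.17 ± 0.08 (adjusted p = 0.243 and 0.262). Lep, the gene of leptin itself, was below background on all 22 arrays, and Leprot, which overlaps the Lepr locus, differed by 0.12 ± 0.10, -0.01 ± 0.09 and 0.07 ± 0.09.

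Other inhibitors of these receptors gave no call either, with 0 of 15 measured genes past the threshold on any day and medians of -0.03, -0.04 and -0.08. Socs2 differed by 0.24 ± 0.10, -0.01 ± 0.09 and 0.05 ± 0.10 (SE, lowest adjusted p = 0.392), and Cish by 0.23 ± 0.10, 0.12 ± 0.10 and 0.20 ± 0.10 (lowest adjusted p = 0.318). Both encode cytokine-induced inhibitors of the Socs family. Socs1 differed by 0.02 ± 0.11, -0.13 ± 0.10 and -0.09 ± 0.10. The smallest p in this list was that of Pias3, which encodes an inhibitor of Stat3, on day 10 (-0.20 ± 0.07, adjusted p = 0.296), and Socs4 was -0.22 ± 0.08 on day 17 (adjusted p = 0.177).

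Downstream of the insulin and growth factor receptors, 0 of 33 measured genes passed on any day, with medians of -0.05, -0.04 and -0.05. Of the 33, 23, 21 and 25 had a lower mean than in controls on days 10, 14 and 17. Pik3r1, a regulatory subunit of phosphatidylinositol 3-kinase, differed by 0.08 ± 0.05, 0.05 ± 0.05 and 0.13 ± 0.05 (SE, lowest adjusted p = 0.229). The kinase gene Akt1 differed by -0.05 ± 0.05, -0.06 ± 0.05 and -0.04 ± 0.05, and Akt2 by 0.02 ± 0.06, -0.03 ± 0.05 and -0.03 ± 0.06. Foxo3 differed by -0.15 ± 0.09, 0.04 ± 0.09 and -0.11 ± 0.09. The smallest p on day 17 belonged to Inppl1, a lipid phosphatase gene (-0.30 ± 0.09, adjusted p = 0.114), and Shc3, a neuronal adaptor gene (-0.30 ± 0.10, adjusted p = 0.135).

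Among 14 measured ligands and binding proteins, Igfbp7, a secreted binding protein that vessel cells make, was the one that passed against controls. It passed on days 14 and 17, where 0.218% and 1.12% of all genes passed. Its controls ran from 8.73 through 8.84 to 8.93 (8.84 ± 0.09, SD, n = 4), day 10 from 9.14 through 9.32 to 9.52, day 14 from 9.12 through 9.55 to 9.78 and day 17 from 9.27 through 9.32 to 9.71. All 18 tumour-bearing mice lay above every control. The share of all genes separated in this way was not counted, and Igfbp7 is named because it passed. Igfbp7 rose by 0.63 ± 0.11 on day 14 (SE, limma adjusted p = 0.00966) and 0.59 ± 0.11 on day 17 (adjusted p = 0.0116), and its difference on day 10 was 0.49 ± 0.12 (adjusted p = 0.134). Without control mouse 1, 2 or 3 the day 14 adjusted p was 0.0813, 0.0540 or 0.0532, with differences of 0.60, 0.62 and 0.64. Without control mouse 1 the day 17 adjusted p was 0.0706, with a difference of 0.56. With the neuron mean in the fit the day 14 difference was 0.58 (adjusted p = 0.610). Without the 4 arrays highest in thalamus markers the day 14 difference was 0.56 (adjusted p = 0.798). With only the control and day 14 arrays in the fit it was 0.63 (adjusted p = 0.0778). In each of these settings 0 of all genes were called on day 14.

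Of 11 endothelial markers, 8 had a higher and 3 a lower mean than in controls on each day, and 1, Slc2a1, the glucose transporter of the blood-brain barrier, passed on days 14 and 17 (0.49 ± 0.10 on day 17). The mean of these markers ran from 6.99 to 7.13 in controls and from 6.96 to 7.48 in tumour-bearing mice. With this mean in the fit the Igfbp7 differences were 0.40, 0.47 and 0.42 (adjusted p = 0.166, 0.0693 and 0.105). Igfbp3 was 0.42 ± 0.10 above controls on day 17 (adjusted p = 0.0528). Igf1 differed by 0.01 ± 0.17, -0.20 ± 0.16 and -0.22 ± 0.16, and Igf2, which vessels and meninges express, by 0.66 ± 0.40, 0.42 ± 0.37 and 0.31 ± 0.38. The mean of 10 meningeal fibroblast markers spanned 5.50 to 6.03 in controls and 5.23 to 6.68 in tumour-bearing mice, and its part in the Igf2 values was not tested.

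Of 18 measured genes known as Stat3 targets, 2 rose on day 10, 2 on day 14 and 3 on day 17, and 0 fell, where 0.106%, 0.218% and 1.12% of all genes passed in either direction. Their median differences were 0.09, 0.08 and 0.09, beside 0.00, 0.00 and -0.01 for all genes. This list and the FOXO list below were chosen with earlier results of these data known, so their counts and medians are a description. Lcn2, which encodes the acute-phase protein lipocalin 2, ran from 3.53 to 5.35 in controls and from 5.22 to 7.32 in tumour-bearing mice. The control median was 3.90, close to the background of 3.87, and the lowest control lay below background. Lcn2 rose by 2.21 ± 0.39, 2.27 ± 0.37 and 1.81 ± 0.38 on days 10, 14 and 17 (SE, limma adjusted p = 0.0280, 0.00738 and 0.0240). Osmr, the oncostatin M receptor gene, rose by 0.65 ± 0.13, 0.69 ± 0.12 and 0.56 ± 0.12 on days 10, 14 and 17 (SE, limma adjusted p = 0.0410, 0.00966 and 0.0276). Icam1, a vessel adhesion molecule gene, rose by 0.53 ± 0.13 on day 17 (adjusted p = 0.0432) and differed by 0.41 ± 0.13 and 0.38 ± 0.12 on days 10 and 14. These genes answer to several cytokines besides leptin. Pomc, the neuronal target in this list, differed by -0.65 ± 0.22, -0.33 ± 0.20 and -0.69 ± 0.21 (lowest adjusted p = 0.102).

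Leaving out control mouse 1, 2 or 3 raised the adjusted p of each of these calls above 0.05. Lcn2 on day 10 was then 2.16, 2.00 or 2.08 above controls, Osmr on day 10 was 0.66, 0.66 or 0.57, and Icam1 on day 17 was 0.55, 0.51 or 0.57. The call of Osmr on day 10 ended without any of 12 arrays (adjusted p from 0.0510 to 0.182). Of these, 5 were arrays of days 14 and 17, without which its difference stayed at 0.65. The calls of Osmr ended on day 14 without any of 3 arrays, all of them controls (0.0540 to 0.0839), and on day 17 without any of 7 (0.0505 to 0.125), the 3 controls and day 17 mice 1, 2, 4 and 5. The call of Icam1 ended without any of 12 arrays (0.0503 to 0.113), among them all 4 controls and day 17 mice 2, 3, 4 and 5. For Lcn2 these were 7 arrays on day 10, 3 of them controls, and the 3 controls on each of days 14 and 17 (0.0502 to 0.182 over the 3 days). With the endothelial mean in the fit, the day 10 calls held for Lcn2 (1.91, adjusted p = 0.0375) and Osmr (0.56, adjusted p = 0.0460). The later calls did not: Lcn2 was 1.76 and 1.25 above controls on days 14 and 17 (adjusted p = 0.0598 and 0.179), Osmr 0.53 and 0.39 (0.0694 and 0.196) and Icam1 0.42 on day 17 (0.243). With the thalamus mean the day 10 calls ended: Lcn2 was 2.19 (adjusted p = 0.116) and Osmr 0.66 (0.121). They also ended with the neuron mean, at 1.94 (0.409) and 0.55 (0.455). With either mean 0 of all genes were called on day 10. Without the 4 arrays highest in thalamus markers, Lcn2 and Osmr were 1.94 and 0.54 on day 10 (0.493 for both). With only the control and day 10 arrays in the fit, Lcn2 was 2.21 (0.0907), where 18 of all genes were called.

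Of 19 measured FOXO target genes, 0 rose on days 10 and 14 and 2 on day 17, where 1.12% of all genes passed, and 0 fell. Their median differences were 0.11, 0.08 and 0.05, beside 0.00, 0.00 and -0.01 for all genes. Npy, the appetite-raising neuropeptide that Foxo1 induces, rose by 1.27 ± 0.24 on day 17 (SE, limma adjusted p = 0.0120) and differed by 0.54 ± 0.25 and 0.99 ± 0.24 on days 10 and 14. Its controls ran from 7.73 to 9.13 and the day 17 mice from 9.12 to 10.00, so that 1 control reached the day 17 range. Txnip, which encodes an inhibitor of thioredoxin that responds to glucose, rose by 0.58 ± 0.14 on day 17 (adjusted p = 0.0445), with 0.43 ± 0.15 and 0.57 ± 0.14 on the earlier days. Its controls ran from 7.28 to 7.91 and the day 17 mice from 7.81 to 8.47. Without control mouse 1, 2 or 3 the day 17 adjusted p was 0.0838, 0.0517 or 0.0741 for Npy and 0.113, 0.154 or 0.155 for Txnip. The differences were then 1.17, 1.24 or 1.1 for Npy and 0.60, 0.49 or 0.54 for Txnip. The call of Txnip ended without any of 11 arrays in all (adjusted p from 0.0519 to 0.155), among them day 17 mice 2, 3, 4 and 5. With the neuron mean in the fit, the day 17 differences were 0.53 for Npy and 0.16 for Txnip (adjusted p = 0.533 and 0.774). With the endothelial mean they were 1.39 and 0.48 (adjusted p = 0.0317 and 0.237).

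The promoter windows of the Stat3 and FOXO target genes were read for both sets of letters. The Stat core was present for 2 of the 15 Stat3 targets with a window, Gfap and Icam1, and for 3 of 17 FOXO targets, Bcl6, Gabarapl1 and Sod2 (12.5% and 20% of their windows, beside 8.3% of all windows). The FOXO core was present for 3 of 17 FOXO targets, Sesn1, Trim63 and Txnip, and for 2 of 15 Stat3 targets, Junb and Pim1 (15% and 12.5% of their windows, beside 3.65% of all windows). Each core was thus found in both lists. The stretches around the match in Icam1, at chr9:21015868-21015936 on the plus strand, and in Txnip, at chr3:96557806-96557872 on the plus strand (GRCm38.p6, RefSeq), are shown as the matches near called genes, with the matched letters in capitals. A match is a description of the letters and does not show binding.

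Icam1: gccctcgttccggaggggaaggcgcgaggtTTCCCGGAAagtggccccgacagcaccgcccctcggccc

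Txnip: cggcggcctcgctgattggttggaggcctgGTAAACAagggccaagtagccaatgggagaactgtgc

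**Figure D5:**
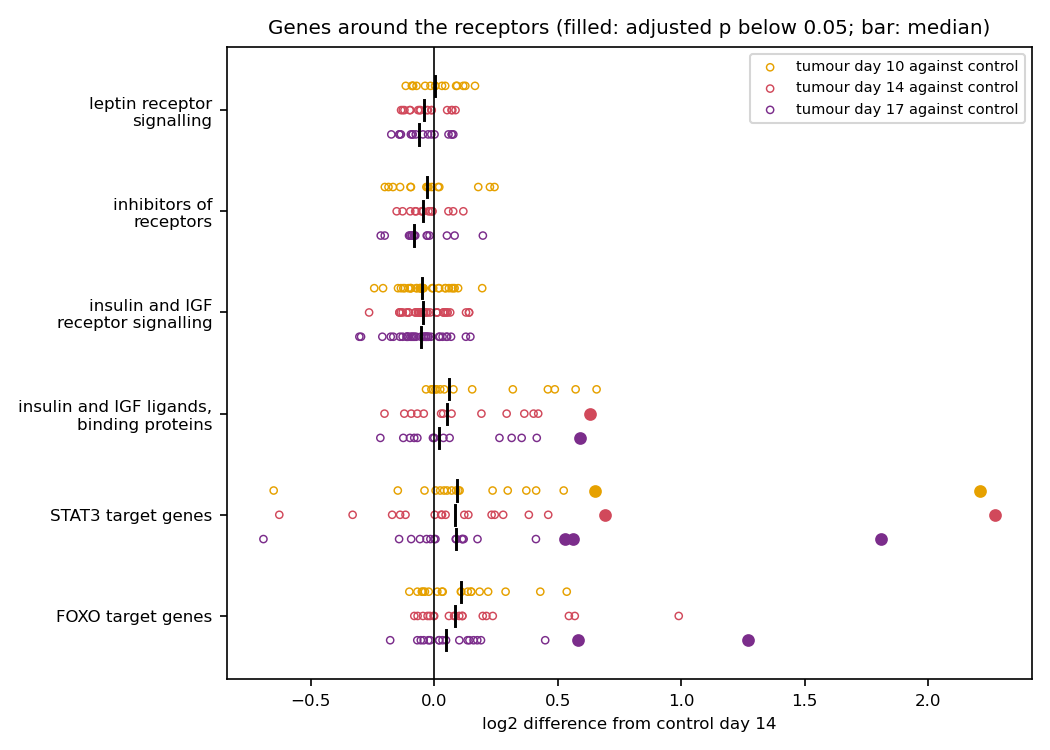
Differences from controls (horizontal axis, log2) of the measured genes in 6 lists around the receptors, for tumour days 10, 14 and 17. Filled points passed adjusted p below 0.05, open points did not, and black bars are list medians. The signalling and inhibitor lists hold no filled point, while Igfbp7, Lcn2, Osmr, Icam1, Npy and Txnip are the filled points of the other lists.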

How the data were processed

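Hypothalamic RNA of 22 mice was measured on 1 array each. The deposited values are log2 intensities that the authors made with RMA (background correction, normalization between arrays, summary per probe set), per the submitters' processing notes; its version and the genome build are not given in the sources used here. Of 35556 probe sets the platform annotation gave 21218 to 1 gene, and the brightest per gene was used for 18820 genes, with no filter on low values. Array medians ran from 5.27 to 5.34, and the number of arrays limits the precision.

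In R 4.3.3, limma 3.58.1 estimated the means of the 4 groups from all arrays together (18 residual degrees of freedom, two-sided tests, Benjamini-Hochberg over 18820 genes, threshold 0.05), after the script was tested on simulated data. The members, the lists and the rule for named genes (all members, in each list the genes that passed, or the 2 smallest p where none did, a set of pathway genes, and the 2 genes most like each member) were chosen with earlier results of these data known. Motifs were chosen likewise. Lists are described by counts and medians. Alternatives changed the variance model, weights, scaling, probe set rule, filter, threshold, samples and covariates, or left out each array. The neuron covariate and the set without the 4 arrays highest in thalamus markers were chosen after seeing the data.

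The 2 runs of sample records, 9 and 13 arrays, are an order of the records; the labels do not say what they stand for.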

Additional observations from a re-analysis of the deposited data

Results flagged for a closer look

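Of 36 groups of mice examined for a value far from the others (9 genes in 4 groups), 3 had one, where chance gives about 5%. Insr measured 7.86 in day 10 mouse 1, while the other 4 mice of that group lay between 8.13 and 8.18. The same mouse was also the lowest of its group for Lepr, Igf1r, Irs2 and Ptpn2, and the highest for Irs1, Socs3 and Ptpn1. Irs1 measured 7.03 in day 17 mouse 2, where the median of the group was 6.69. Ptpn1 measured 6.76 in day 17 mouse 5, where the median was 6.90. The dimmer Socs3 probe set, which did not stand for the gene in the counts, was 0.34 above controls on day 10, with all 5 mice above every control, and did not pass the adjusted threshold. The share of all probe sets separated in this way was not counted.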

How the results depend on the processing

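Among the 8 comparisons, the number of the 9 genes called differed from 0 in 2. On day 17 it was 1 (Lepr) with a variance trend, 1 with array weights, 1 with a run term and 1 at an adjusted p below 0.1, and it lay between 0 and 1 when arrays were left out in turn. With the tumour days averaged it was 1 (Lepr) with array weights. With the replicate block, which treats equal numbers as pairs, Lepr was 0.23, 0.39 and 0.46 above controls on days 10, 14 and 17, and 0 of the 9 genes were called. The main fit did not treat equal numbers as pairs. Of 28 pairs of arrays from different groups with the same number, 15 deviated together with a correlation over 0.1 (range -0.19 to 0.35). Their median correlation was 0.12, beside -0.01 for the 151 pairs from different groups with unlike numbers. What arrays of the same number share was not tested. The count of all genes called moved further. It was 20, 41 and 211 on days 10, 14 and 17, and across the settings it ran from 0 to 76, from 0 to 140 and from 0 to 616. The highest count came with array weights on day 10 and with the replicate block on days 14 and 17.

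Of 28 differences of the 9 genes from controls, 14 changed sign under some setting, and 0 of these 14 were called. Their values of the opposite sign follow, with Npy, which is not one of the 9, added for day 10. With the neuron mean in the fit the differences were Foxo1 -0.056, Insr -0.025, Lepr -0.10, Npy -0.070 and Ptpn1 0.020 on day 10, Ptpn1 0.054 on day 14 and Foxo1 -0.17 on day 17. With the thalamus mean the differences were Igf1r 0.00041, Insr -0.024 and Ptpn1 0.054 on day 10, Ptpn1 0.076 on day 14 and Foxo1 -0.056 on day 17. Without the 4 arrays highest in thalamus markers the differences were Igf1r 0.0015, Insr -0.025, Ptpn1 0.062 and Ptpn2 0.022 on day 10, Irs2 0.036, Ptpn1 0.055 and Socs3 -0.076 on day 14 and Irs2 0.024 and Socs3 -0.036 on day 17. With the endothelial mean the differences were Irs2 0.032 on day 14 and Igf1r -0.044 and Irs2 0.046 on day 17. With the choroid plexus mean the difference was Ptpn1 0.0077 on day 14. In the earlier run alone the differences were Insr -0.028 and Ptpn1 0.060 on day 10, Ptpn1 0.089 on day 14 and Igf1r -0.051 on day 17. In the later run alone the differences were Ptpn2 0.026 on day 10, Irs1 0.029 on day 14 and Irs2 0.0078 on day 17. With the replicate block the differences were Insr -0.014 on day 10 and Ptpn1 0.021 on day 14. With array weights the difference was Irs1 0.0079 on day 14. With the run term the difference was Igf1r -0.0083 on day 17. When arrays were left out in turn, Insr on day 10 ran from -0.022 to 0.063, Ptpn1 on day 10 ran from -0.097 to 0.023, Irs1 on day 14 ran from -0.12 to 0.00033, Irs2 on day 14 ran from -0.058 to 0.0043, Ptpn1 on day 14 ran from -0.044 to 0.057, Socs3 on day 14 ran from -0.0087 to 0.17, Igf1r on day 17 ran from -0.0081 to 0.049 and Irs2 on day 17 ran from -0.050 to 0.013. The causes were not tested.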
